A study of Mus musculus with 21 samples.

Results

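The 9 genes described here were the myogenic regulatory factors Myod1, Myog, Myf5 and Myf6, the paired box genes Pax7 and Pax3, and the inhibitors Id1, Id2 and Id3. They were taken as all probes on the array that carry these gene names, which gave 10 probes (2 for Pax3 and 1 for each other gene) of 55681. Of these, 9 probes passed the filter on dim probes, as did 46928 of all probes, and the Myf5 probe did not. The arrays held 21 single myofibers isolated with collagenase from hind limb muscles of CD1 mice at 3 months of age. There were 11 type 1 myofibers from soleus (S) and 10 type 2B myofibers from extensor digitorum longus (EDL, E), picked from 9 mice. Soleus myofibers were taken from 6 mice and EDL myofibers from 6, with 3 mice in both sets. Satellite cells may stay attached to myofibers isolated in this way. Myofibers are named by muscle, myofiber number and mouse number, so that S6.4 is a soleus myofiber of mouse 4. A part of each myofiber was used to type it by its myosin heavy chain protein, the rest was amplified for 1 array, and no group was treated. Fiber type and muscle go together and cannot be told apart. The labels give the mice as male, whereas the study's methods give females for the myofibers. Xist was well above background in 9 of 21 myofibers and the Y-linked Ddx3y in 21 of 21, and the sex was not settled here.

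Myogenic regulatory factors are basic helix-loop-helix proteins that bind DNA at E-boxes as dimers with E proteins and switch on muscle genes. Myf5 and Myod1 act in determination, Myog in the differentiation of myoblasts and, in adult muscle, in the response to lost nerve activity, and Myf6 (MRF4) is the factor known for its high level in mature myofibers. Pax7 and Pax3 act upstream in muscle precursors, and Pax7 marks satellite cells, the stem cells that lie on the myofiber. Id proteins have the helix-loop-helix but no basic region, so that they take up E proteins without binding DNA, and their genes respond to bone morphogenetic protein (BMP) signals.

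The reference table of RefSeq promoters (GRCm38.p6) held 5 of the 9 genes, Myog, Myf5, Pax7, Id2 and Id3, and Myod1, Myf6, Pax3 and Id1 were missing from it. The 250 bases before the start of the gene are shown for Myog and Myf5, the muscle basic helix-loop-helix genes in the table, with E-boxes (CANNTG, which reads the same on both strands) in capitals. The window of Myog is chr1:134289754-134290003 on the plus strand and that of Myf5 is chr10:107486135-107486384 on the minus strand.
Myog: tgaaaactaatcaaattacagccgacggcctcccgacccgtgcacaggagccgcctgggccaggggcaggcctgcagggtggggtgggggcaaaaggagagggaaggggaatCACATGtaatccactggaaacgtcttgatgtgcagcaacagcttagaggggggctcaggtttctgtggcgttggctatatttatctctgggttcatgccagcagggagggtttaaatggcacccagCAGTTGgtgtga
Myf5: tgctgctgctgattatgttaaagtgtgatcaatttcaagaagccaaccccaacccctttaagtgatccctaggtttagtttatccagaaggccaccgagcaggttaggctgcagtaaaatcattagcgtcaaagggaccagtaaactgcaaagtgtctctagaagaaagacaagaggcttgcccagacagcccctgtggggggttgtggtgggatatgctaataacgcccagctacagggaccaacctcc
Myog held 2 E-boxes, CACATG at 138 and CAGTTG at 12 bases before the start. Id2 held 1, and none was found in these windows of Myf5, Pax7 and Id3. Of 32851 promoters of the same length, 66.2% held an E-box and 31.8% held 2 or more, so that this motif was common. The Id3 probe is shown because it is the only probe of these genes that spans more of the genome than its own length, 175 bases for 60 (chr4:135700075-135700249, mm9, plus strand).
Id3 probe A_51_P380178: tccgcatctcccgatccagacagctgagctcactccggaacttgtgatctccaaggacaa
The other probes covered 60 bases of genome each. The Myf5 and Myf6 probes lay 10203 bases apart on chromosome 10, and the Pax3 probes 122 bases apart on chromosome 1 (mm9).

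Levels are log2 of the quantile normalized intensity, differences are type 2B minus type 1, and levels of different probes are not compared with each other. The arrays differed in brightness by slide. Slide 1 (4 myofibers of each type) had 73.2% to 79.8% of spots well above background, while the 2 myofibers of each type on slide 3 (S11.3, S10.10, E14.3 and E15.3) had 38.7% to 48.1%. Slide 4 held 2 type 2B myofibers and no type 1 (45.7% to 45.8%). Slide 5 held 2 type 1 myofibers (54.2% to 63.1%) and slide 6 held 1 (57.1%), with no type 2B, and these were the only arrays of scan day 4. On slides 4, 5 and 6 fiber type and slide cannot be told apart. Type 1 arrays ranged from 41.2% to 79.8% and type 2B arrays from 38.7% to 74.6%. The part of brightness in the results was not tested, and values within slide 1 are given beside each member that differed. Of the 11 type 1 myofibers, 10 had Myh7 (slow myosin) at 15.18 to 15.96, and the 10 type 2B myofibers had it at 6.42 to 7.49. Myh4, the myosin of type 2B, was at 14.07 to 15.48 in type 2B and at 8.27 or less in type 1. S6.4, labelled type 1, went against its label. Its Myh7 level was 8.88 and its slow troponin Tnni1 level 8.28, while its Myh2 level of 14.86 was the highest of the myofibers with a value and its fast troponin Tnni2 level of 16.08 was within the range of type 2B (15.73 to 16.47). S6.4 also had the lowest Myod1 and Myf6 levels of its group, 9.34 and 8.79. Without S6.4 no member passed, and 8 of the partner, regulator and target genes and 7 of the cell type markers described further on did. The members then had differences of -1.496 for Myog, -1.32 for Pax7, 1.43 for Pax3 (A_55_P2033705), -1.59 for Id1, -0.79 for Id3, -0.083 for Myod1, 0.034 for Myf6 and 0.13 for Id2.

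None of the 9 tested probes passed the test between fiber types (limma, Benjamini-Hochberg adjusted p at most 0.05 over all probes), while 7.64% of all 46928 tested probes did. At an unadjusted p under 0.05 there were 4 of 9 probes, those of Id1, Myog and Pax7 with lower values in type 2B and 1 Pax3 probe with higher values, against 18.6% of all probes. The methods' t-test called 0 of 9 after Benjamini-Hochberg and 4 at an unadjusted p under 0.05. The counts of called members depended on the fit. With means per mouse as samples 3 probes passed, Pax3 (A_55_P2033705), Pax7 and Id1. That fit, and the permutations of mouse means, took mice 3, 4 and 9 as separate samples in each type. With the mouse as a fixed block none passed, with adjusted p of 0.59 for Pax3 (A_55_P2033705), 0.64 for Pax7, 0.48 for Id1 and 0.59 for Myog, and no probe was then at an unadjusted p under 0.05. With the slide as a block 1 passed, Myog. With 75th percentile scaling, and within slide 1, it was Pax3 (A_55_P2033705). With the scan day as a block 0 passed, and Myog had a difference of -1.02 (adjusted p = 0.26).

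**Figure D1:**
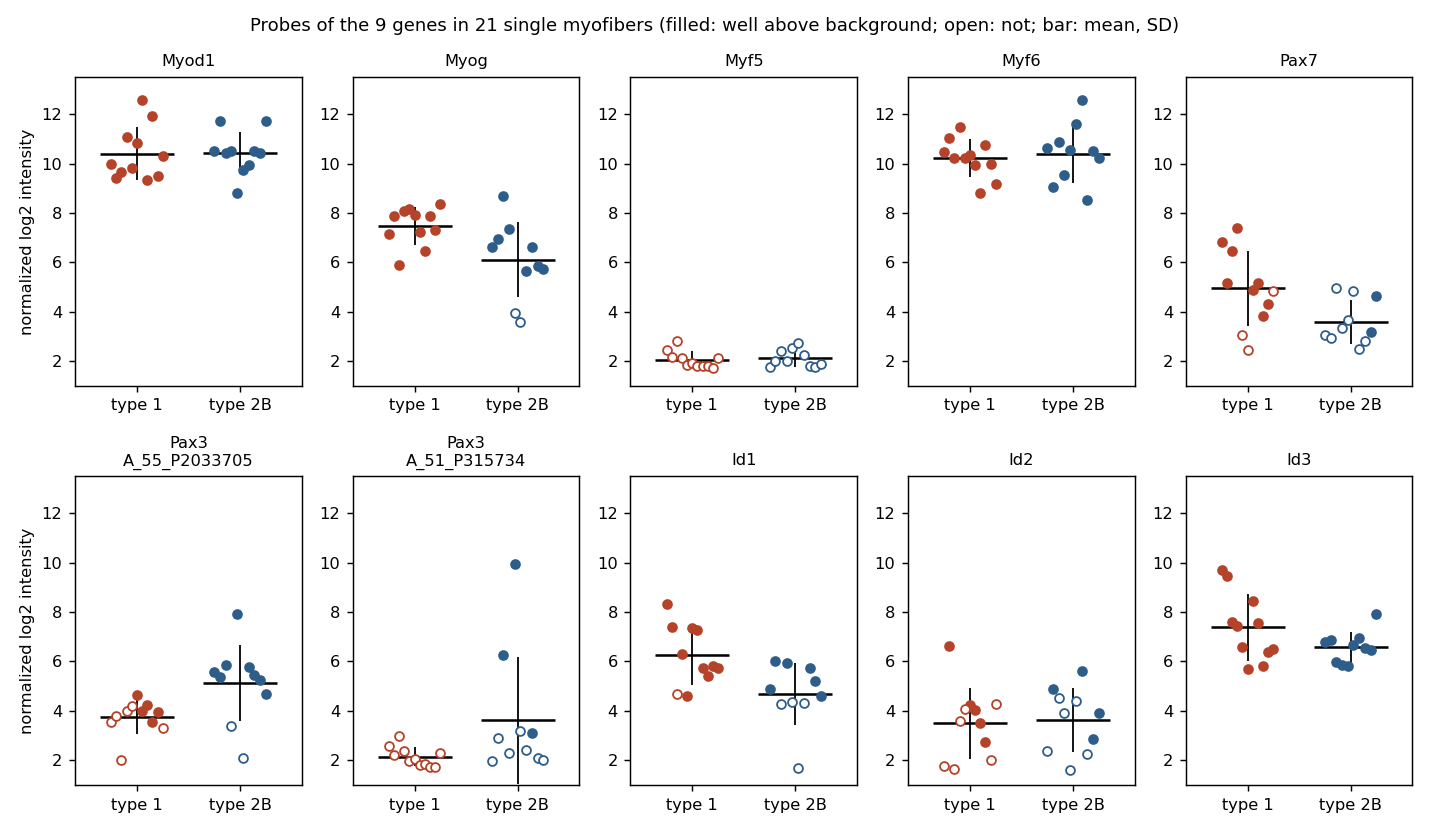
Normalized log2 intensity (vertical axis) of the 10 probes in each of the 11 type 1 and 10 type 2B myofibers (points), with the mean (horizontal bar) and SD (vertical bar). Filled points are well above background. Myod1 and Myf6 overlap widely between the types, Myf5 is never well above background, and Myog, Pax7 and Id1 lie lower and Pax3 higher in type 2B with overlapping points.

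**Figure D2:**
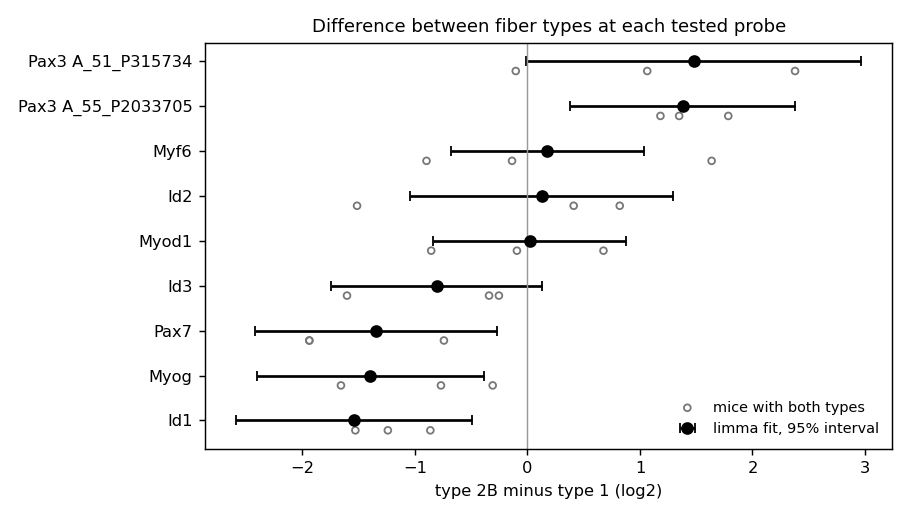
Difference between type 2B and type 1 on the log2 scale (horizontal axis) at the 9 tested probes, with the 95% interval of the limma fit (black) and the differences within the 3 mice that gave both types (open circles). The intervals of Myog, Pax7, Id1 and Pax3 A_55_P2033705 leave out 0, although none passed after adjustment over all probes.

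Myod1 was well above background in all 21 myofibers, with no detectable difference between the types. It ran from 9.34 over a median of 9.97 to 12.57 in type 1 and from 8.80 over 10.46 to 11.72 in type 2B. The groups overlapped almost wholly, with S5.9 (12.57) and S7.2 (11.93) at the upper end and E14.3 at the lower. The difference was 0.02 ± 0.41 (SE; adjusted p = 0.99), with a 95% interval from -0.84 to 0.88, so that levels 1.84-fold higher or 1.78-fold lower in type 2B are within the error. The probe has 10 spots on each array, and the median SD between spots was 0.097 against SDs of 1.08 and 0.86 between the myofibers of type 1 and type 2B. Within mice 3, 4 and 9 the difference was -0.09, 0.68 and -0.86.

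Myf6, the factor of mature myofibers, overlapped widely between the types. It ran from 8.79 over 10.23 to 11.48 in type 1 and from 8.51 over 10.52 to 12.57 in type 2B, well above background in all myofibers. E7.7 (12.57) and E15.3 (11.59) lay above every type 1 myofiber and E8.3 below. The difference was 0.18 ± 0.41 (adjusted p = 0.88; 95% interval -0.68 to 1.03). Myf5 was at background, with 1.72 to 2.83 in type 1 and 1.77 to 2.72 in type 2B. Only 1 of its 110 spots on the type 1 arrays, and 6 of its 100 spots on the type 2B arrays, were well above background, and no fold is given.

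Myog was lower in 9 of 10 type 2B myofibers than the median of type 1. It ran from 5.89 over 7.86 to 8.37 in type 1 and from 3.60 over 6.24 to 8.67 in type 2B. In all, 5 of the type 2B myofibers lay below every type 1 myofiber, and E12.5 lay above all of them. E14.3 (3.95) and E15.3 (3.60), which were not well above background at Myog, lay on the dim slide 3. The difference was -1.39 ± 0.49 (SE), a 2.63-fold lower level in type 2B, and did not pass after adjustment (p = 0.0090, adjusted p = 0.092). With normexp background correction it was -0.74 (adjusted p = 0.11). Means per mouse gave -1.19 with p = 0.011 (exact permutation test, two-sided, 6 mice against 6). Within slide 1 it was -1.02 (4 against 4, exact permutation p = 0.086, where the smallest that 70 groupings allow is 0.029), and within mice 3, 4 and 9 it was -1.66, -0.77 and -0.31. Without E12.5 the adjusted p was 0.018 and without mouse 5 0.030, and without E14.3 and E15.3 the difference was -0.81 with an adjusted p of 0.27. Over all 30 omissions of 1 myofiber or mouse the adjusted p ran from 0.018 to 0.29 and the difference from -1.69 to -1.07. Over the alternatives with Benjamini-Hochberg adjustment, those that leave out 1 myofiber or mouse aside, the adjusted p ran from 0.036 to 0.59, with the highest value when blocked by mouse. The 10 spots of the probe had a median SD of 0.13 on an array, against 0.77 and 1.52 between the myofibers of the types.

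The ratio of Myog to Myod1 in each myofiber, as log2 Myog minus log2 Myod1, is compared only between myofibers, since its absolute size comes from different probes. It ran from -5.33 (S5.9) over -2.90 to -1.57 (S10.8) in type 1 and from -6.15 (E15.3) over -4.42 to -1.75 (E12.5) in type 2B. In 9 of 10 type 2B myofibers it was below the median of type 1, and the types overlapped. Averaged by mouse, it was -2.99 ± 1.25 (SD, n = 6 mice) in type 1 and -4.43 ± 0.96 (SD, n = 6 mice) in type 2B. The difference of -1.44 had p = 0.052 in an exact permutation test over 924 groupings (two-sided, smallest p 0.0022), where the mice with both types were taken as separate in each group. Mice 3 and 4 had a lower ratio in their type 2B myofibers, by -1.56 and -1.44, and mouse 9 a higher one, by 0.55. The mean difference was -0.96 within slide 1, -2.24 within slide 2 and -2.21 within slide 3. The type 2B myofibers of slide 3, E14.3 and E15.3, were not well above background at Myog. Their ratios, and the difference within slide 3, rest on background values of Myog.
Single myofibers moved this test across 0.05. Without S5.9, the type 1 myofiber with the lowest ratio, the difference was -1.90 (exact permutation p = 0.0043). Without mouse 9 it was -1.83 (exact p = 0.0079), without mouse 5 -1.69 (exact p = 0.037) and without E12.5 -1.67 (exact p = 0.019). Without 1 of S6.4, S11.3, S7.2, E13.3 or E8.3 the exact permutation p was 0.045 to 0.050. Over all 30 such omissions the difference ran from -1.90 to -1.12 and the p from 0.0043 to 0.15.

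**Figure D3:**
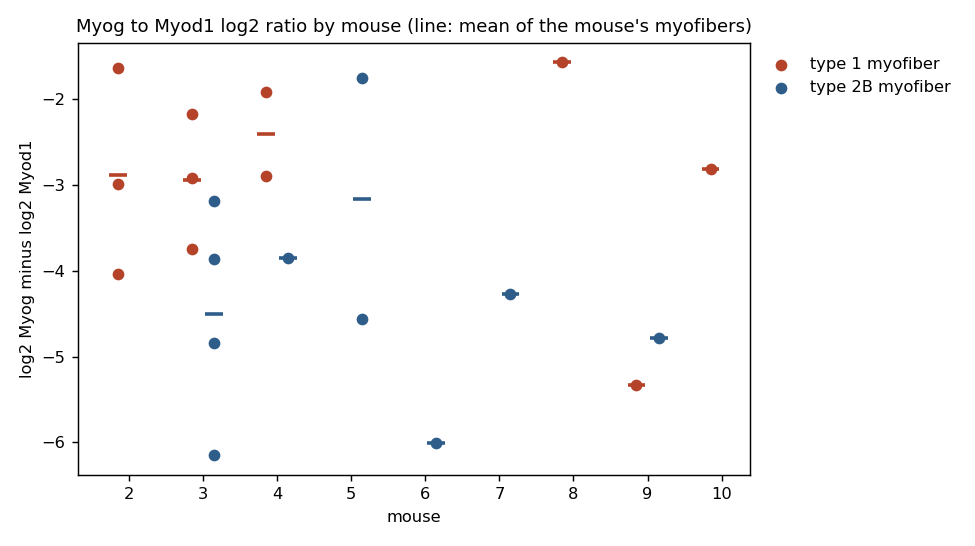
Log2 Myog minus log2 Myod1 (vertical axis) in each myofiber (points) by mouse (horizontal axis), with the mean of the mouse's myofibers of a type (short lines). In mice 3 and 4 the type 2B means are lower than those of type 1, in mouse 9 the type 1 myofiber S5.9 has the lowest ratio of its type at -5.33, and E12.5 of mouse 5 has the highest of type 2B at -1.75.

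Pax7 was more often measurable in type 1 myofibers. Of the type 1 myofibers 8 of 11 were well above background at this probe, against 2 of 10 of type 2B. The level ran from 2.46 over 4.87 to 7.38 in type 1 and from 2.48 over 3.27 to 4.96 in type 2B. In all, 5 type 1 myofibers lay above every type 2B one, led by S14.2 (7.38), S10.10 (6.83) and S11.3 (6.46), while S16.3 and S15.2 were as low as type 2B. The difference was -1.35 ± 0.52 (SE; p = 0.016, adjusted p = 0.14). Means per mouse gave -1.70 with an exact permutation p of 0.0043 (6 against 6), and passed in the fit on these means (adjusted p = 0.035), against an adjusted p of 0.64 with the mouse as a fixed block, and these were the ends of the range over the alternatives. Within slide 1 the difference was -1.12 (exact permutation p = 0.086), and within mice 3, 4 and 9 it was -0.74, -1.94 and -1.94. Without S16.3 the adjusted p was 0.048. Over all 30 omissions of 1 myofiber or mouse it ran from 0.048 to 0.28, with a difference of -1.59 to -1.10. In a whole myofiber preparation, fewer satellite cells and less RNA per cell cannot be told apart.

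Pax3 was the member with higher values in type 2B. At A_55_P2033705, the brighter probe, it ran from 2.01 over 3.97 to 4.66 in type 1 and from 2.11 over 5.41 to 7.94 in type 2B, and 8 of 10 type 2B myofibers lay above every type 1 myofiber. The exceptions were E13.3 (3.40) and E15.3 (2.11), neither well above background. Of the type 1 myofibers 5 of 11 were well above background there, and of type 2B 8 of 10. The difference was 1.38 ± 0.48 (SE), with p = 0.0089 and an adjusted p of 0.091, and no fold is given, since most type 1 values were not well above background. The means of the 6 type 2B mice (4.66 to 5.76) lay above those of the 6 type 1 mice (3.55 to 4.00), which gave an exact permutation p of 0.0022, the smallest of this design, and an adjusted p of 0.0015 in the fit on mouse means (0.0015 to 0.83 over the alternatives). Blocked by mouse, the difference was 1.35 (adjusted p = 0.59). Within slide 1 the types did not overlap either, with 3.55 to 4.23 in type 1 and 4.66 to 5.56 in type 2B (exact permutation p = 0.029, 4 against 4). Mice 3, 4 and 9 had differences of 1.18, 1.78 and 1.35. Without mouse 3 the adjusted p was 0.00082, without E15.3 0.0080 and without E13.3 0.045. Over all 30 omissions of 1 myofiber or mouse it ran from 0.00082 to 0.20, with a difference of 1.07 to 1.72.

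The other Pax3 probe, A_51_P315734, with 10 spots, gave another picture. None of the 11 type 1 myofibers (1.74 to 2.97) was well above background there, against 3 of 10 type 2B myofibers, E14.3 (9.96), E12.5 (6.24) and E8.3 (3.09). The other 7 type 2B myofibers had 1.98 to 3.20 and were not well above background. The probe passed the filter only through type 2B, with 0 of 11 type 1 and 5 of 10 type 2B myofibers positive and significant, so that its test depends on the group where it is high. The difference was 1.48 ± 0.72 (SE; p = 0.052, adjusted p = 0.28), and no fold is given, because the type 2B mean of 3.61 is under the lowest signals well above background on the type 1 arrays (mean 3.84). E14.3 was the highest at each probe, and E12.5 was next to it at A_51_P315734. At the brighter probe E12.5 (5.87) lay close to E7.7 (5.76). Without E14.3 and E12.5 the brighter probe had a difference of 0.94 with an adjusted p of 0.26.

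**Figure D4:**
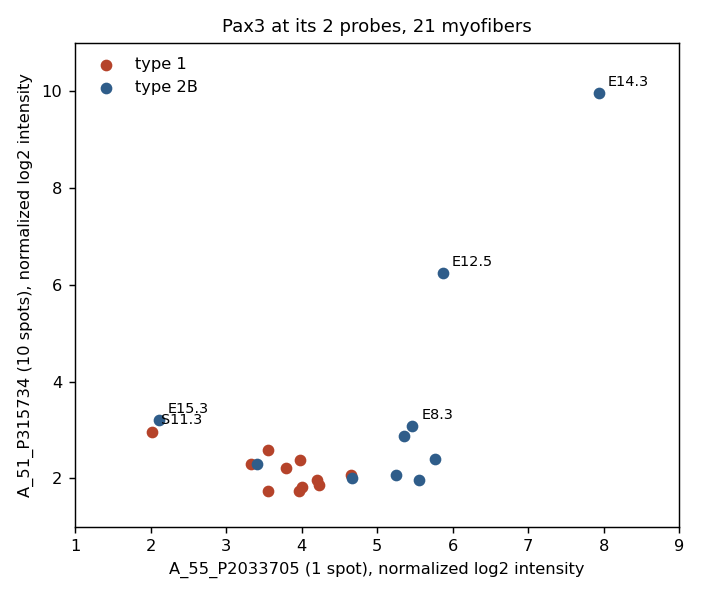
Normalized log2 intensity of Pax3 in 21 myofibers at A_55_P2033705 (horizontal axis) and A_51_P315734 (vertical axis). E14.3 (7.94 and 9.96) stands out at both probes. E12.5 (5.87 and 6.24) stands out on the vertical axis only, and lies close to E7.7 (5.76) and E10.4 (5.56) on the horizontal axis. The other type 2B myofibers lie between 1.98 and 3.20 on the vertical axis.

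Id1 was the inhibitor with lower values in type 2B. It ran from 4.62 over 5.81 to 8.34 in type 1, where 10 of 11 myofibers were well above background, and from 1.69 over 4.75 to 6.04 in type 2B, where 6 of 10 were. There 5 type 1 myofibers, led by S10.10 (8.34) and S10.8 (7.41), lay above every type 2B myofiber, and 5 type 2B myofibers lay below every type 1 myofiber, of which E15.3 (1.69) was the lowest. The difference was -1.54 ± 0.50 (SE), 2.91-fold lower in type 2B, with the lowest p of the 9 probes (p = 0.0057, adjusted p = 0.066). This size rests in part on background values in type 2B, and with normexp background correction it was -0.66 (adjusted p = 0.099). Means per mouse gave -1.86 (exact permutation p = 0.0087, 6 against 6) and an adjusted p of 0.036 (0.036 to 0.73 over the alternatives), against 0.48 with the mouse as a fixed block. Within slide 1 the difference was -0.96 (exact permutation p = 0.057), and within mice 3, 4 and 9 it was -1.53, -0.86 and -1.24. Without S11.3 the adjusted p was 0.041, without S15.2 0.039 and without E11.9 0.045. Over all 30 omissions of 1 myofiber or mouse the adjusted p ran from 0.039 to 0.14 and the difference from -1.85 to -1.21.

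Id3 was well above background in all myofibers, from 5.68 over 7.42 to 9.72 in type 1 and from 5.81 over 6.59 to 7.93 in type 2B. The type 1 myofibers S10.10 (9.72), S10.8 (9.47) and S5.9 (8.46) lay above all of type 2B, and the others overlapped with it. The difference of -0.80 ± 0.45 (SE; adjusted p = 0.37) had a 95% interval from -1.74 to 0.13, and within slide 1 it was -0.13. Id2 cleared background in 5 of 11 type 1 myofibers and 4 of 10 type 2B myofibers, from 1.64 over 3.57 to 6.61 and from 1.62 over 3.92 to 5.60. Its difference of 0.13 ± 0.56 (SE; adjusted p = 0.95) had a 95% interval from -1.04 to 1.29. S10.8 had the highest Id2 of all myofibers and was second to S10.10 at Id1 and Id3.

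Among the 8 tested genes, Pearson's r across the 21 myofibers was highest for Id3 and Pax7 (0.60, and 0.52 for the deviations from the type means), Id1 and Myog (0.59 and 0.42) and Id1 and Id3 (0.48 and 0.36), and lowest for Pax3 and Pax7 (-0.50 and -0.33). Myod1 and Myog had 0.32 and 0.39. These are descriptions over myofibers that share mice and slides, with brightness varying between arrays. Of 17358 other genes with a tested probe and a RefSeq symbol, those most like Myog were Fras1 (r = 0.92, deviations 0.88), Gdf15 (0.83 and 0.80) and E030011O05Rik (0.81 and 0.77). Those most like Myod1 were Synj2 (0.87 and 0.88), Prrt1 (0.87 and 0.88) and Stmn4 (0.87 and 0.88). For Id1 they were Zfp352, Creld2 and Smchd1 (0.87, 0.85 and 0.83), for Id3 Maff, Olfr599 and Klf6 (0.87, 0.79 and 0.79), for Id2 9130001E16Rik, Sprr2g and Olfr1182 (0.73, 0.72 and 0.69), and for Myf6 Ppil6, Pdcd1lg2 and Gm10693 (0.79, 0.77 and 0.75). For Pax3 they were Unc119, Zfp113 and Foxk2 (0.85, 0.83 and 0.80) and for Pax7 Oxct1, Acadm and 2210409D07Rik (0.78, 0.77 and 0.76). Each is the highest of many correlations over 21 points.

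Among the partners, regulators and targets of these factors, 9 of 49 tested genes passed, 7 with lower and 2 with higher levels in type 2B. Over all probes 4.12% passed with lower and 3.52% with higher levels in type 2B. The lists hold 53 genes, and Smad6, Smad9, Snai1 and Id4 did not pass the filter. None of the 3 E proteins (Tcf3, Tcf4, Tcf12), with which the factors pair, and none of the 4 MEF2 factors, their partners at muscle genes, passed. Tcf12 had a difference of -0.90 (adjusted p = 0.25), and the median over the E proteins was -0.63 and over the MEF2 factors -0.15, against 0.03 over all probes.

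The list of regulators that couple nerve activity to Myog held the most calls for its size, 3 of 6. Dach2, a repressor of Myog that falls with denervation, was lower in type 2B (-2.92 ± 0.58, SE; adjusted p = 0.0017). It was well above background in 7 of 11 and 2 of 10 myofibers, so that the size of this difference rests on background values in type 2B. Hdac9, a class IIa deacetylase that binds MEF2, had -2.16 ± 0.47 (adjusted p = 0.0036), and Sik1, a kinase of these deacetylases, -1.97 ± 0.46 (adjusted p = 0.0074). Sik1 was well above background in 10 of 11 and 5 of 10 myofibers, so that its size rests in part on background values. Hdac4, Hdac5 and Hdac7 had differences of -0.05, -0.23 and -0.13 with adjusted p of 0.96, 0.77 and 0.81. Of 12 tested genes of the BMP and Smad pathway, 1 passed, the receptor Bmpr1b, with a mean of 6.48 in type 1 and 4.14 in type 2B (-2.33 ± 0.39, SE; adjusted p = 0.00025). Bmpr1b was well above background in 11 of 11 and 5 of 10 myofibers, so that this size also rests in part on background values. The other receptors Bmpr1a, Bmpr2 and Acvr1 had 0.31, 0.04 and -0.04, and the ligands Bmp2, Bmp4 and Bmp7 0.07, -0.33 and 0.17, none of which passed.

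Of 11 other inhibitors tested, 2 passed in opposite directions. Hey1, a Notch target, was well above background in 6 of 11 type 1 and 0 of 10 type 2B myofibers (at least 2.01-fold higher in type 1; adjusted p = 0.0089). Twist1 was not well above background in type 1 and was so in 3 of 10 of type 2B (means 1.74 and 3.16; adjusted p = 0.037), too dim for a fold. Its type 1 values of 1.63 to 2.13 were all at background, so that its call depends on the group where it is high. Of 13 targets, 3 passed. Ckm, the muscle creatine kinase, was higher in type 2B (13.40 and 14.61; 1.22 ± 0.25, SE; adjusted p = 0.0019). Musk, the kinase of the neuromuscular junction, was lower (-1.27 ± 0.37; adjusted p = 0.034), and so was the cell cycle inhibitor Cdkn1a (-1.38 ± 0.41; adjusted p = 0.038). Of the acetylcholine receptor subunits, which Myog is known to switch on, Chrna1 and Chrnd had -2.18 and -1.39 (adjusted p = 0.075 and 0.16), Chrnb1 and Chrne 0.86 and 0.59 (0.27 and 0.79) and Chrng -0.0028 (1.00). Across 21 myofibers Chrna1 had r = 0.61 with Myog, and 0.46 for the deviations from the type means. The other subunits had 0.37 and 0.17 (Chrnd), 0.25 and 0.39 (Chrne), 0.07 and 0.08 (Chrng) and -0.43 and -0.28 (Chrnb1).

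Markers of other cell types were set beside the members, since satellite cells express Pax7 and endothelial cells Id1 and Id3. Of 33 tested markers 7 passed, all with lower levels in type 2B, against 4.12% of all probes in that direction. Of these, 5 are among the 12 satellite cell markers (Ncam1 -2.52, Cxcr4 -2.40, Chodl -2.08, Megf10 -1.97 and Sdc4 -1.38), and the others were the endothelial receptor Tek (-1.68) and the collagen Col3a1 (-2.49). Tek was the only call among 8 tested endothelial markers, which had a median difference of -0.05. Col3a1 was the only call among 4 tested connective tissue markers, which had a median of -0.57. Megf10 (6 of 11 and 1 of 10 myofibers well above background), Cxcr4 (9 and 3), Chodl (10 and 4) and Tek (9 and 4) were mostly at background in type 2B, and the sizes of their differences rest on those values. Ncam1 and Itga7, another gene of the list, are also known from myofibers. Cdh15 and Cd34, of the same satellite list, had 1.13 and 0.77 (adjusted p = 0.098 and 0.64). The summed normalized intensity of the satellite list ran from 1379 to 3293 in type 1 (median 2566) and from 841 to 6152 in type 2B (median 1335). The endothelial list ran from 1460 to 3153 and from 1391 to 4118, the connective tissue list from 224 to 3763 and from 169 to 550, the blood list from 280 to 6775 and from 299 to 602, the pericyte and smooth muscle list from 136 to 871 and from 162 to 329, and the Schwann cell list from 20.1 to 134 and from 19.8 to 142. Markers of the same lists differed in detection. Pdgfra, Lum and Pdgfrb were not well above background in any myofiber, and Cdh5 was so in 2 of 11 and 0 of 10. Kdr, Col1a2, Ptprc and Myh11 were well above background in 11 of 11 and 10 of 10, and Pecam1 in 7 and 5. The part of these cells in the results was not tested.

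**Figure D5:**
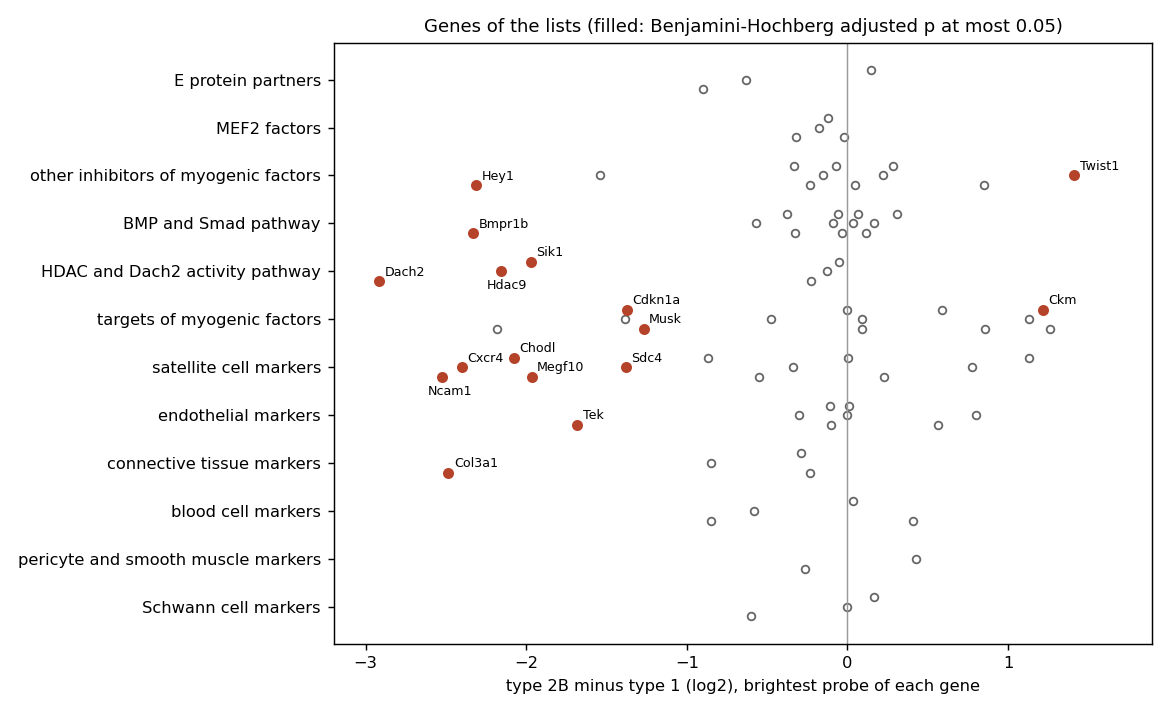
Difference between type 2B and type 1 on the log2 scale (horizontal axis) for the brightest probe of each tested gene of the lists (rows). Filled, named points have a Benjamini-Hochberg adjusted p of at most 0.05. Ckm and Twist1 are the only filled points to the right, and Dach2, Ncam1, Col3a1 and Cxcr4 lie farthest to the left.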

How the data were processed

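Each of 21 single myofibers was hybridized to its own one-color Agilent mouse array. The authors deposited the scanner output of Feature Extraction 10.7.3.1, per the file headers with the processed intensity (background subtracted and detrended within the array, not normalized between arrays), the mean and background intensity and flags per spot of 62976 features. RNA was amplified in many cycles before labeling, which can alter differences between myofibers. The authors' table of normalized values was not used, since it gives none for these probes.

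The members and gene lists were chosen with earlier results of these data known. Here the processed intensity was quantile normalized as log2 between arrays (limma 3.58.1, R 4.3.3), spots flagged as outliers were left out and spots of a probe averaged. The test took 46928 probes whose signal was flagged positive and significant in 50% or more of the type 1 or of the type 2B myofibers. Mouse entered through duplicateCorrelation as a random effect (estimated correlation -0.017), and p-values were adjusted by Benjamini-Hochberg at 0.05 over all of them. Well above background is a separate flag of the scanner software, taken to hold for a probe where 50% or more of its spots carried it. Fits that leave out a myofiber or mouse, and those within a slide, took the same correlation. Exact permutation tests were two-sided, over means per mouse or, within slide 1, over myofibers. For the Myog to Myod1 ratio, alternatives were also run over all 21 myofibers and, by changes of sign, over pairs with the same replicate number. Slides came from the array barcodes. Every probe of the 9 genes is named. For a gene with several probes the brightest over all arrays stands for it, and of other lists the genes past the threshold are named, with further genes chosen for their role after their values were seen. For likeness the 3 other genes with the highest Pearson's r over 21 myofibers were taken. Promoters came from the RefSeq table of GRCm38.p6 and no genome was used, so that exons and untranslated regions of the probes are not given. The fit was tested on simulated data. Alternatives changed normalization, background correction, filter, mouse, slide, scan day, replicate number, threshold, test and myofibers. Python 3.11.15 with numpy 2.4.6, pandas 2.3.3 and scipy 1.17.1 did the other steps. The number of arrays and their signal over background limit the precision.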

Additional observations from a re-analysis of the deposited data

Results flagged for a closer look

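Among the 10 type 2B myofibers, E15.3 had by far the lowest Id1 level, 1.69, with a gap to the next myofiber of 0.591 of the whole range, above the 95% value of Dixon's test for 10 samples (0.466). It was not well above background there, and E15.3 lies on the dim slide 3. E9.6 had the highest Id3 level of type 2B, 7.93, with a gap of 0.470 of the range. Chance alone gives about 1 such value in 20 groups, and 2 of 11 groups of type 2B values had one. The 11 type 1 myofibers were not tested in this way.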

How the results depend on the processing

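Main counts were 0 member probes, 9 pathway genes and 7 marker genes. Member probes called were 3 with means per mouse, 1 with 75th percentile scaling, with the slide as a block, within slide 1, without E14.3 and E12.5 and without E14.3 and E15.3, and 0 to 1 when a myofiber or mouse was left out. Pathway genes called were 1 with the mouse as a fixed block, 3 within slide 1, 0 within slides 2 and 3 and with Bonferroni, and 3 to 9 when a myofiber or mouse was left out, with 3 without mouse 3. Marker genes called were 2 with spots below background missing, 4 with means per mouse, 1 with the mouse as a fixed block and within slide 1, 0 within slides 2 and 3 and with Bonferroni, and 4 to 8 when a myofiber or mouse was left out, with 4 without mouse 2, 4, 5, 7 or 9. Over all tested probes the calls were 3586, against 2299 with spots below background missing, 1416 with the mouse as a fixed block, 1362, 17 and 0 within slides 1, 2 and 3, and 691 with Bonferroni. The cause of these changes was not tested, except that the fits within a slide have fewer samples. The omissions of 2 myofibers were chosen after seeing the data.

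The replicate numbers of the labels share only a number (correlation of deviations between same-numbered myofibers -0.15 to 0.20, median -0.03). With the replicate block 0 member probes, 7 pathway genes, 5 marker genes and 2958 of all probes were called, and the Myog to Myod1 ratio of same-numbered pairs differed by -1.40 (exact permutation p = 0.0059). The ratio differed by -1.41 in a permutation over myofibers (exact p = 0.016). The tests over pairs and over myofibers took myofibers of the same mouse as independent, so that their p-values do not measure the spread between mice. Over means per mouse, the ratio differed by -1.65 without E14.3 and E12.5 (exact p = 0.022). It differed by -1.32 to -0.89 under the other 4 alternatives (exact p 0.069 to 0.29, with -0.89 from normexp), and by -1.90 to -1.12 when 1 myofiber or mouse was left out. The array has 1 probe each for Myog and Myod1, so that the alternative of other probes could not be run.

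The differences of Myog, Pax7, Pax3, Id1 and Id3 kept their direction under every alternative run. Those near 0 changed sign. Myod1 had -0.12 with spots below background missing, -0.048 with the mouse as a fixed block, -0.064 within slide 1, -0.53 within slide 3, and -0.13 to 0.24 when 1 myofiber or mouse was left out. Myf6 had -0.82 within slide 2 and -0.12 to 0.42 when 1 was left out. Id2 had -0.084 with 75th percentile scaling, -0.013 with normexp, -0.26 with spots below background missing, -0.051 with the slide as a block, -0.041 with the replicate block, -0.22 within slide 1, -1.05 within slide 2, and -0.10 to 0.44 when 1 was left out. Signal over background limits Myf5, Id2, Pax7 and the 10-spot Pax3 probe most.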
